A study of Mus musculus with 6 samples.

Results

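The AP-1 transcription factors were examined as 10 genes, Fos, Fosb, Fosl1, Fosl2, Jun, Junb, Jund, Atf3, Batf and Maff, among 37991 genes counted in mouse tumours of cutaneous squamous cell carcinoma with or without Kindlin-1. The genes were taken by name from a family list, all 10 were found by Ensembl identifier, and all 10 passed the filter on low counts. The wild-type group held 3 tumour libraries of the genotype Kindlin-1 WT, and the null group held 3 of the genotype Kindlin-1 Null, a knockout of the integrin adaptor encoded by Fermt1. Both groups came from carcinoma cells of one named origin (cSCC), with no treatment named. Not given in the sources used here were the strain, age and immune status of the mice, the number of clones behind each genotype and the way the knockout was made. The titles give wild-type libraries 1 and 2 one mouse number and null libraries 2 and 3 another, so n = 3 counts libraries, and each group holds 2 animals if a shared number is 1 animal. The file of null library 3 carries another number than its title. The p-values therefore measure spread among these libraries, some of it possibly technical. The comparison asked whether expression of the family differs between tumours with and without Kindlin-1.

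AP-1 is a dimer of basic leucine zipper (bZIP) proteins. A Fos protein must pair with a Jun protein to bind DNA, while Jun proteins can also pair with each other, and the usual site is the sequence TGANTCA. The related ATF and CREB proteins prefer TGACGTCA, and Batf and the small Maf protein MafF lack the transactivation domains of Fos and Jun. Mitogens, integrin signalling, wounding and stress act on the family through MAP kinases, which phosphorylate the proteins and switch on Fos, Fosb, Jun, Junb and Atf3 within minutes as immediate early genes. Fosl1 (Fra-1) and Fosl2 (Fra-2) follow more slowly, and Fosl1 is itself an AP-1 target. In epidermis the family takes part in differentiation, wound repair and squamous cancer, where Fosl1 is often linked with migration and invasion.

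Promoter sequences of 4 members are shown: Fos as the reference member of the family, Jun and Junb because their ratio is described here, and Maff for its palindrome. They are the 250 bases before the annotated start, from RefSeq on the build GRCm38.p6, a later build than the mm9 named for the counts. The windows are Fos chr12:85473640-85473889 (plus strand), Jun chr4:95052223-95052472 (minus strand), Junb chr8:84978749-84978998 (minus strand) and the second of 3 start windows of Maff, chr15:79347270-79347519 (plus strand). Each is written 5′ to 3′ on the strand of the gene, with matches to TGACG, TGACATCA or TGACGTCA in capitals.
Fos: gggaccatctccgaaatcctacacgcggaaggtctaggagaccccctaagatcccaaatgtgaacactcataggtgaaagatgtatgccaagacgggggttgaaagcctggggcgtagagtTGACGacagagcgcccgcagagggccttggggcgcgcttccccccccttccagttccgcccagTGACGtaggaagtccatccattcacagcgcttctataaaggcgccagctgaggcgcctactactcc
Jun: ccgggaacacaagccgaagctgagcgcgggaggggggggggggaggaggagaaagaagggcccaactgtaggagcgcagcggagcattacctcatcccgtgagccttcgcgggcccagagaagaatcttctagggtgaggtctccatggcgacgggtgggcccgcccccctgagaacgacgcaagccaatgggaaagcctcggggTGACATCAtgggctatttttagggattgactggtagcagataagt
Junb: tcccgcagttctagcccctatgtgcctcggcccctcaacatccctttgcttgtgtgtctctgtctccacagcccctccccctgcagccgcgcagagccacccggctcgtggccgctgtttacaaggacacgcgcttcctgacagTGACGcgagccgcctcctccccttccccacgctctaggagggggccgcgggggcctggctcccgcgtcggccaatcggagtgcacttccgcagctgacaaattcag
Maff: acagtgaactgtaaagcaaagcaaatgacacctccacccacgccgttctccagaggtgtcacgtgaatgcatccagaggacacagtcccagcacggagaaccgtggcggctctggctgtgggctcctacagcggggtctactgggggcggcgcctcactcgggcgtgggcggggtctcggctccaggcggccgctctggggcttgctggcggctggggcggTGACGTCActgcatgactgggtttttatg
The full palindrome TGACGTCA, which contains TGACG on both strands, began 29 bases before the start of Maff. Jun held the variant TGACATCA, which began 45 bases before its start. Fos held TGACG from 129 and 66 bases before its start, and Junb from 106 bases. Over all 32851 windows of this length, searched on both strands, 17.8% held TGACG, 2.93% held TGACATCA, 1.55% held TGACGTCA and 6.75% held TGANTCA. The 9 members with a window (all but Fosl1) had 11 windows. Counted by gene, 6 held TGACG (Fos, Fosb, Junb, Atf3, Batf and Maff), 2 held TGACATCA (Jun and another Maff window), 1 held TGACGTCA, and 0 held TGANTCA. For TGACG this was 7 of the 11 windows, and 5347 of all 27025 genes held it in some window. These matches describe letters in a window and show no binding.

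Depth differed widely, from 161711 reads in genes (wild-type library 2) to 31487255 (null library 2), and a floor of 3 counts stood at 18.3 CPM in the first and at 0.0945 CPM in the second. CPM is the read count relative to the reads in genes of its library, scaled by TMM, a method that aligns the bulk of genes between libraries. The labels were checked with Fermt1, with 16, 2 and 1040 reads in the wild-type group (libraries 1, 2, 3) against 0, 2 and 2 in the null group. Of 10 keratinocyte markers 7 were tested and 1 fell, Krt14, and their summed level ran from 293 to 433 CPM in wild type and from 243 to 281 CPM in null tumours. The basal keratin Krt5 and the epithelial adhesion molecule Epcam had no read in 2 libraries each and stayed under 4 CPM in the others, while Itgb4, Trp63 and Krt14 had reads in every library. All 6 skeletal muscle markers fell (summed level 486 to 1208 CPM in wild type, 30.3 to 86.9 CPM in null), and mast cell (3 of 5 rose, 238 to 708 against 983 to 3428 CPM) and neutrophil markers (1 of 3 tested rose, 7.01 to 18.3 against 38.6 to 61.3 CPM) were higher in null tumours. These calls are from edgeR, while DESeq2 called 1 of the 5 mast cell markers and 1 neutrophil marker. Over all genes tested, edgeR called 5.79% and DESeq2 5.42%. The mast cell sum was uneven among null libraries 1 to 3, at 1477, 983 and 3428 CPM. The neutrophil sum came mostly from S100a8 and S100a9, and the neutrophil marker Ly6g had no read in any library. The summed level of Lars2 and the 2 mitochondrial ribosomal RNAs was 8545 to 25690 CPM in wild type and 1383 to 2932 CPM in null. The part of these differences in the AP-1 values was not tested. In these bulk samples fewer cells of a type and less RNA per cell cannot be told apart.

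Of the 10 AP-1 genes 1 passed the test, Fosl1, which was higher in null tumours. It entered the test through the null libraries, and its call did not hold with DESeq2 (adjusted p = 0.117) or in limma-voom with a random effect of mouse number (adjusted p = 0.126), nor in 2 of the 3 leave-one-out fits that could test it. By the same edgeR test 0 members fell, with 2 lower ones (Jund and Junb) at an unadjusted p under 0.05. Of all 11887 genes tested, 5.79% passed (edgeR's quasi-likelihood test, Benjamini-Hochberg adjusted p under 0.05). Those higher in null tumours were 2.26% of all genes tested, and those lower were 3.52%. So 1 of 10 is near the background and is no result about the family. Log2 fold changes, null minus wild type, were positive for 4 members and negative for 6, with a median of -0.19 against 0.01 over all genes tested. The groups did not overlap for 3 members, Maff (null above), Junb and Jund (null below), nor for 30.5% of all genes tested, so this share of the family was that of the background. At an unadjusted p under 0.05 stood 4 members, Fosl1, Maff, Jund and Junb, and 25.1% of all genes tested.

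Other settings were read against their own background in the same way. The 2 members called with upper-quartile scaling, with no filter on low counts and after summing the libraries of each mouse number (Fosl1 and Maff) stood beside 5.92%, 3.77% and 3.57% of all genes. The 1 member called stood beside 5.89% with DESeq2's size factors, 5.61% without robust dispersion, 3.81% with the wild-type pair alone summed (Fosl1 each time) and 8.08% in limma-voom with a random effect of mouse number (Maff). Where 0 members were called, DESeq2 called 5.42% of all genes and a filter of 10 CPM in 3 libraries left 5.36%. Without wild-type libraries 1, 2 and 3 the shares were 6.66%, 4.28% and 2.64%, and without null libraries 1, 2 and 3 they were 1.38%, 4.82% and 2.09%, with 0 or 1 member called each time.

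**Figure D1:**
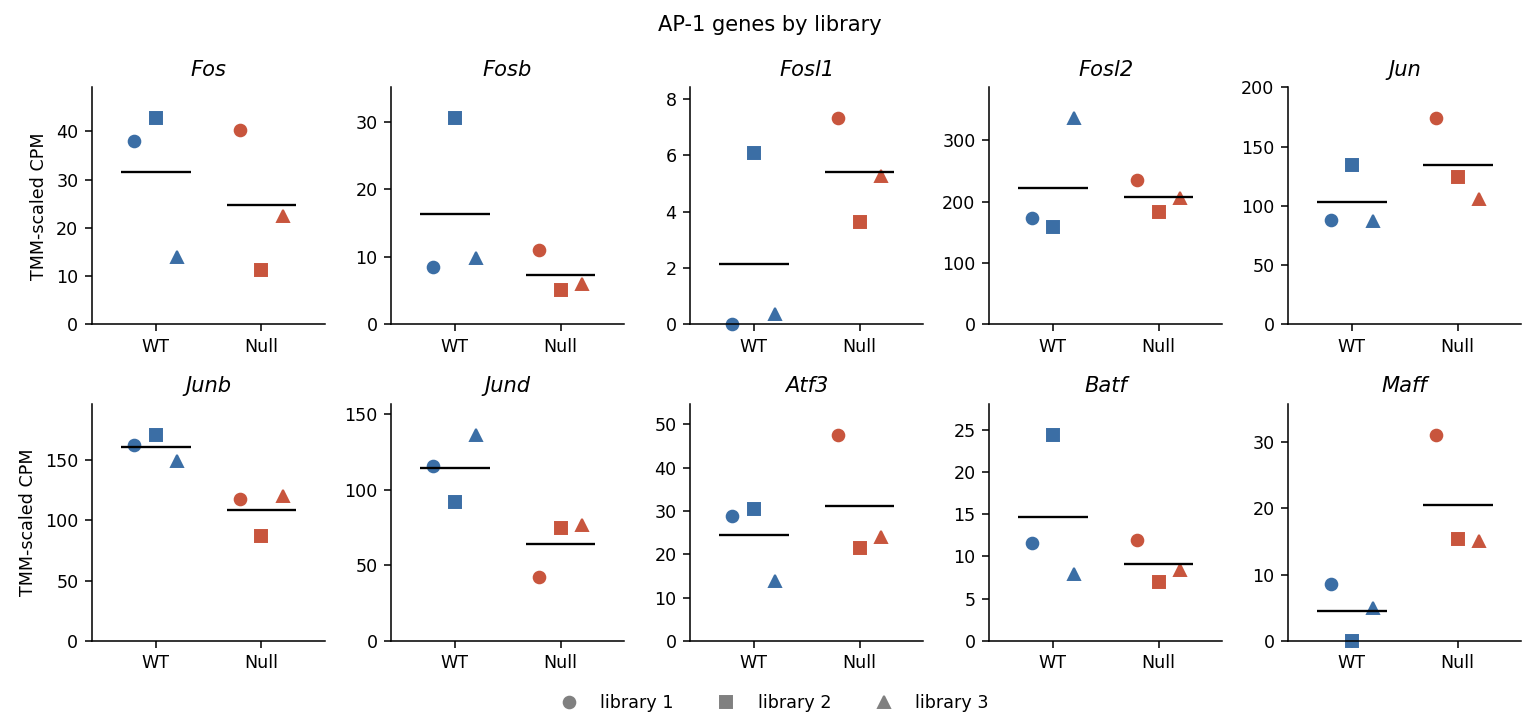
TMM-scaled CPM of the 10 AP-1 genes (vertical axes from 0, one scale per gene) in 3 wild-type (WT, blue) and 3 Kindlin-1 null (Null, red) libraries. Symbols mark the library number, which pairs nothing between groups, and lines are group means. The groups do not overlap for Junb, Jund and Maff.

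**Figure D2:**
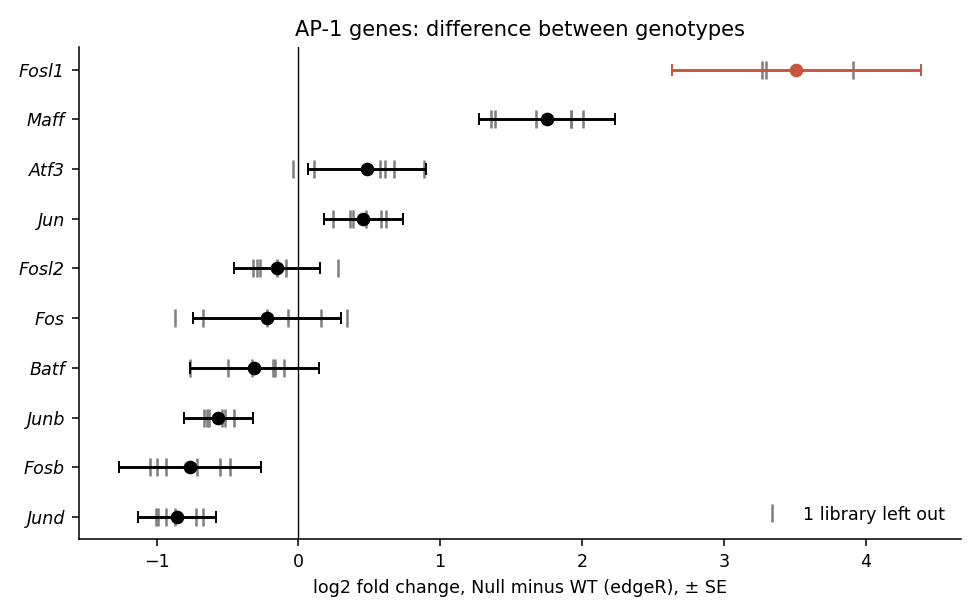
Log2 fold change (null minus wild type, horizontal axis) of each AP-1 gene with its SE from edgeR over 6 libraries, red where the adjusted p was under 0.05. Grey ticks are fits with 1 library left out, of which Fosl1 has 3. Fos, Fosl2 and Atf3 change sign among the ticks.

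Fosl1 (ENSMUSG00000024912), the late Fos-family member Fra-1, was counted 0, 1 and 6 times in the wild-type group (libraries 1, 2, 3) and 8, 116 and 27 times in the null group. On the CPM scale this was 0, 6.11 and 0.372 in wild type (2.16 ± 3.42, SD, n = 3) and 7.32, 3.65 and 5.28 in null tumours (5.42 ± 1.84). The 3 null libraries lay above wild-type libraries 1 and 3, and the groups overlapped through a single read in wild-type library 2, the shallowest, whose 95% exact Poisson interval ran from 0.155 to 34 CPM. In wild-type library 3, the deepest of its group, the interval was 0.137 to 0.81 CPM, below the interval of every null library, the lowest of which was 3.02 to 4.38 CPM. The read of wild-type library 2 thus allowed either level, and the 0 reads of wild-type library 1 allowed up to 2.86 CPM by the same interval. These intervals, and those of pooled reads for Fosl1 and Maff, cover counting error only and not the spread between libraries.

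The fitted log2 fold change of Fosl1 was 3.51 (SE 0.88, 11.4-fold, edgeR adjusted p = 0.0365). Pooled over each group, Fosl1 had 0.398 CPM (wild type) and 3.98 CPM (null), a ratio of 9.99 (95% exact interval 4.73 to 25.3). Fosl1 entered the test through the 3 null libraries, since only 1 wild-type library reached the filter of 3.07 CPM. Leaving out wild-type library 1 (edgeR adjusted p = 0.0634) or null library 1 (0.135) ended the call, and leaving out wild-type library 2 did not (0.0321). In the fits lacking wild-type library 3, null library 2 or null library 3 it did not pass the filter and was not tested. In the first of these the ratio of pooled reads was 5.78 (95% exact interval 1.02 to 230). In a later annotation Fosl1 overlaps Ccdc85b on the opposite strand, a gene that is not among those counted. As the use of strand in counting is not stated, reads of Ccdc85b in the shared stretch cannot be told from those of Fosl1.

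Maff (ENSMUSG00000042622), a small Maf protein that binds DNA without an activation domain of its own, showed the next largest difference. Its counts were 11, 0 and 80 in the wild-type group and 34, 488 and 77 in the null group, or 8.54, 0 and 4.96 CPM against 31.1, 15.4 and 15.1 CPM. Every null library lay above every wild-type library, although the 0 of wild-type library 2 allows up to 22.5 CPM by its exact Poisson interval, more than 2 of the null values. The means were 4.5 ± 4.29 and 20.5 ± 9.19 CPM (SD, n = 3), and the log2 fold change was 1.75 (SE 0.48, 3.37-fold). Its edgeR adjusted p of 0.0505 missed the threshold, and values under 15 other settings ran from 0.0293 to 0.258. It passed in 5 of them, namely with upper-quartile scaling (0.0486), with no filter on low counts (0.0293), with the libraries of each shared mouse number summed (0.0357), in limma-voom with a random effect of mouse number (0.0423) and without wild-type library 1 (edgeR, 0.0375). Without wild-type library 3 it stood at 0.258, and the ratio of pooled reads was then 2.08 (95% exact interval 1.16 to 4.2) against 3.05 (2.44 to 3.84) over all libraries. Most of the pooled Maff reads came from the deepest library of each group, with 80 in wild-type library 3 and 488 in null library 2.

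**Figure D3:**
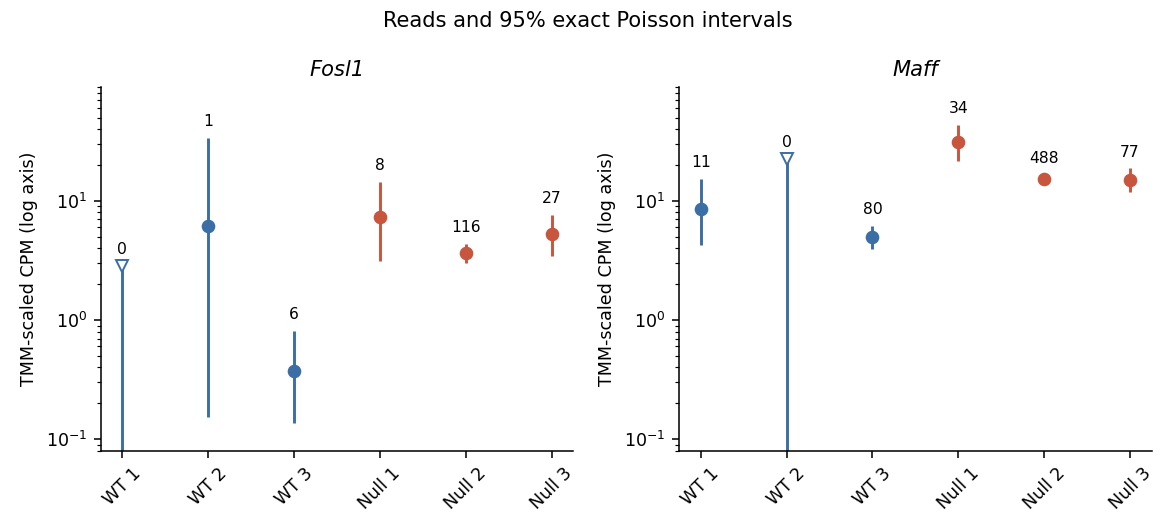
TMM-scaled CPM (log axis) of Fosl1 and Maff in each library with 95% exact Poisson intervals, and read counts above them. Open triangles mark the upper bound where the count was 0, as for Fosl1 in WT 1 and Maff in WT 2, and lines that meet the lower frame extend to 0. Wild-type library 3 holds 6 reads of Fosl1 and lies below all 3 null libraries.

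The Jun genes encode the obligate partners of the Fos proteins, and their differences had unlike signs. Junb (ENSMUSG00000052837), which often restrains Jun, stood at 162, 171 and 149 CPM in wild-type libraries 1 to 3 and at 117, 87.3 and 120 CPM in null libraries 1 to 3. Jund (ENSMUSG00000071076), the member least tied to acute stimulation, stood at 116, 91.6 and 136 CPM in the wild-type group against 42.1, 74.4 and 76.6 CPM in the null group. In both genes each null library lay under each wild-type library. The log2 fold change was -0.56 for Junb (SE 0.24, edgeR adjusted p = 0.166) and -0.86 for Jund (SE 0.28, adjusted p = 0.0823), so neither passed. Their sign was the same under every setting run, between -0.67 and -0.45 for Junb and between -1.07 and -0.67 for Jund.

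Jun (ENSMUSG00000052684), the strongest activator of the 3, stood at 87.7, 134 and 87.6 CPM in the wild-type group against 174, 125 and 106 CPM in the null group. Null libraries 2 and 3 lay under wild-type library 2, whose value rests on 22 reads (95% exact Poisson interval 84.2 to 203 CPM), and above the other wild-type libraries. The log2 fold change was 0.46 (SE 0.28, edgeR adjusted p = 0.319). Junb overlaps Prdx2 on the opposite strand, Jun overlaps the antisense gene Junos, and Jund overlaps Gm11175, which had 0 reads. Since the use of strand in counting is not stated, reads in the shared stretches cannot be told apart.

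Because Junb and Jund were lower and Jun was not, the makeup of the Jun genes was compared within libraries, a choice made after the values were seen. The ratios, shares and sums therefore restate those differences and are given with no test. The ratio of Jun reads to Junb reads, which needs no scaling between libraries, was 0.541, 0.786 and 0.587 in wild type and 1.48, 1.43 and 0.881 in null tumours. Every null library held more Jun per Junb than every wild-type library. Per kilobase of exon, Jun made up 16.4%, 24.6% and 15.8% of the 3 Jun genes in wild type and 41.7%, 32.1% and 25.2% in null tumours, again without overlap. The ratio of Jun to Jund overlapped, at 0.758, 1.47 and 0.642 against 4.13, 1.67 and 1.38.

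The summed level of the 3 Jun genes per kilobase was 167, 171 and 174 CPM per kb in wild type and 131, 122 and 131 CPM per kb in null tumours (171 ± 3.43 and 128 ± 5.38, SD, n = 3). Without length scaling the sums were 365, 397 and 373 CPM against 333, 286 and 302 CPM, so the groups stayed apart on that scale too. The difference of the per-kilobase means, -43.1, lay between -44.9 and -40 when single libraries were left out. As the sum was chosen after the values were seen, this too restates the differences of the single genes.

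**Figure D4:**
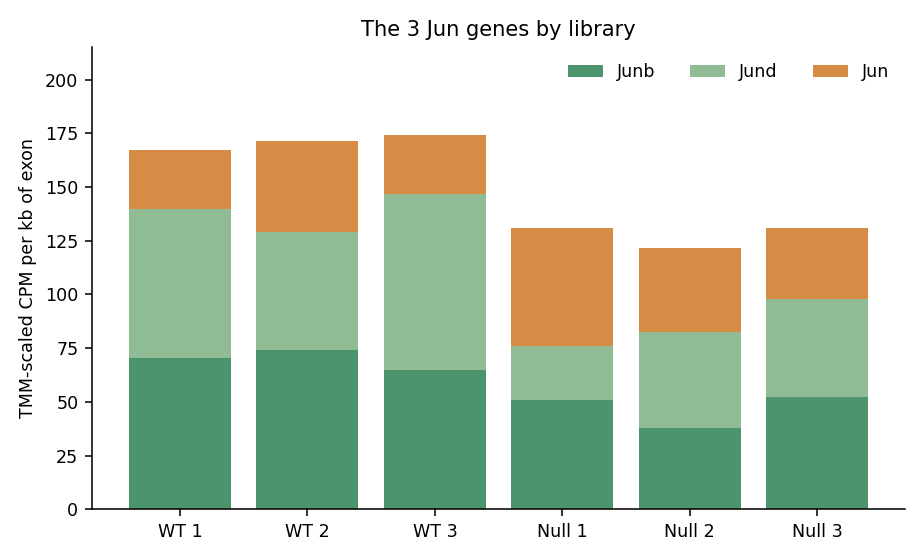
TMM-scaled CPM per kilobase of exon of Junb, Jund and Jun (vertical axis from 0), stacked for each library. The 3 wild-type sums lie between 167 and 174 and the 3 null sums between 122 and 131, while the Jun part is a larger share in the null libraries.

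Among the other Fos genes no difference between genotypes passed. Fos (ENSMUSG00000021250), the prototype immediate early gene, stood at 38, 42.7 and 14 CPM in wild-type libraries 1 to 3 and at 40.3, 11.2 and 22.5 CPM in null libraries 1 to 3. The range within each group was thus about as wide as the whole range, and the log2 fold change was -0.22 (SE 0.52, edgeR adjusted p = 0.821). Fosb (ENSMUSG00000003545), whose product is induced with Fos, stood at 8.54, 30.5 and 9.8 CPM in the wild-type group against 11, 5.13 and 6.06 CPM in the null group. The high value of wild-type library 2 rests on 5 reads, and the log2 fold change was -0.77 (SE 0.5, edgeR adjusted p = 0.352). Fosl2 (ENSMUSG00000029135), the Fos gene with the highest mean in both groups on the CPM and the per-kilobase scale, stood at 173, 159 and 335 CPM in the wild-type group against 235, 183 and 205 CPM in the null group. Wild-type library 3 was the highest of the 6 for Fosl2, the other libraries of that group were the lowest, and the log2 fold change was -0.15 (SE 0.3, edgeR adjusted p = 0.784) or 0.28 without that library (adjusted p = 0.514).

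Per kilobase, Fosl1 made up 0%, 7.07% and 0.432% of the 4 Fos genes in wild type and 7.7%, 6.83% and 7.57% in null tumours. The null shares were close to each other and the wild-type shares were not, with the high one again resting on 1 read. Fosl2 took between 38.6% and 81.8% in wild type and between 51.9% and 71.9% in null tumours, and the summed level of the 4 genes was 40.1 ± 4.04 against 35.8 ± 10.3 CPM per kb (SD, n = 3).

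Atf3 (ENSMUSG00000026628), a stress-induced factor that pairs with Jun proteins, stood at 28.7, 30.5 and 13.9 CPM in the wild-type group against 47.6, 21.5 and 24 CPM in the null group. Null library 1 was the highest and wild-type library 3 the lowest, and the log2 fold change was 0.48 (SE 0.41, edgeR adjusted p = 0.486). Batf (ENSMUSG00000034266), which acts with Jun proteins and IRF4 in lymphocytes and dendritic cells, stood at 11.6, 24.4 and 7.88 CPM in the wild-type group against 11.9, 6.99 and 8.41 CPM in the null group. The groups overlapped, wild-type library 2 again resting on few reads (4), and the log2 fold change was -0.31 (SE 0.45, edgeR adjusted p = 0.699). Batf is prominent in lymphocytes, and of 9 markers of T and NK cells 4 were tested and 0 passed in edgeR or DESeq2, with 0 at an unadjusted p under 0.05. Their summed level was 43 to 85.5 CPM in wild type and 47.1 to 54 CPM in null tumours, led by Cd4 (means of 22.7 and 15.2 CPM), Ncr1 (13 and 14.4 CPM) and Nkg7 (9.52 and 10.6 CPM). Cd3g, Cd3d and Cd8a were lower, with means of at most 5.52 CPM, and Trac and Cd3e had 1 and 4 reads over all 6 libraries. The part of these cells in the Batf values was not tested.

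For 3 members the libraries split by depth and not by genotype, a pattern noticed after the values were seen. The 3 shallowest libraries, wild-type 1 and 2 and null 1, all lay above the 3 deepest for Fos (38 to 42.7 against 11.2 to 22.5 CPM), Atf3 (28.7 to 47.6 against 13.9 to 24 CPM) and Batf (11.6 to 24.4 against 6.99 to 8.41 CPM). Among all genes tested 2.31% lay that way, and 6.01% were split by depth in either direction. Within each genotype the depth classes are also the mouse numbers in the titles, so depth and animal cannot be told apart. Within the shallow class Atf3 was higher in the null library (47.6 CPM) than in both wild-type libraries (28.7 and 30.5 CPM), and within the deep class it was higher in both null libraries (21.5 and 24 CPM) than in the wild-type library (13.9 CPM). In both classes Jun, Maff and Fosl1 were likewise higher, and Junb and Jund lower, in every null library than in every wild-type library. Each class sets 2 libraries against 1, and the share of all genes tested that lay this way was not counted. These splits are therefore no result about the family. For Fosl1 the shallow class compares 8 reads (null library 1) with 0 and 1 (wild-type libraries 1 and 2). An edgeR fit with depth class as a term, added after the data were seen, gave Atf3 a log2 fold change of 0.71 (adjusted p = 0.0798), Jund -1.06 (0.014), Maff 1.78 (0.0153), Fosl1 3.45 (0.0221) and Fos 0.15 (0.78). With it 2122 genes passed, or 17.9% of all tested, and most of its residual spread comes from pairs of a shared mouse number, so it takes little account of differences between animals.

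Levels per kilobase of exon could be ordered within each group, although overlapping neighbours have no settled order. In wild type the order ran Junb (69.9 ± 4.75 CPM per kb), Jund (68.7 ± 13.5), Jun (32.4 ± 8.45), Fosl2 (23 ± 10.1), Fos, Atf3, Batf, Fosb, Maff and Fosl1 (1.06 ± 1.68, SD, n = 3). Only Jund and Jun, and Batf and Fosb, were neighbours whose libraries did not overlap. In null tumours it ran Junb (47 ± 7.86), Jun (42.2 ± 11.1), Jund (38.6 ± 11.6), Fosl2 (21.5 ± 2.72), Atf3, Fos, Maff, Batf, Fosl1 (2.67 ± 0.904) and Fosb (1.18 ± 0.504). There the neighbours without overlap were Jund and Fosl2, Batf and Fosl1, and Fosl1 and Fosb. Fosl1 was thus above Fosb in all 3 null libraries, while in wild type their ranges over the group overlapped. Within each wild-type library Fosl1 lay below Fosb, at 0, 3 and 0.183 against 1.37, 4.89 and 1.57 CPM per kb. These Fosl1 values rest on 0, 1 and 6 reads.

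As a description of pattern, Pearson's r of log2 CPM over the 6 libraries was taken between each member with a mean of at least 20 CPM and 3954 well-counted genes. These points share mouse numbers and depth, and with 6 libraries high values arise readily. The closest to Fos were Racgap1 (r = 0.98), Abracl (0.97) and Qsox1 (0.96), and the closest to Atf3 was Tnfrsf12a (0.98). Jund lay closest to Cic, Ccdc97 and Pik3r2 (r = 0.997, 0.997 and 0.996), none of which passed singly. For Junb the closest were Dynap (0.96), Sema5a (0.95) and Perp (0.94), all 3 of which fell (edgeR adjusted p = 0.0145, 0.048 and 0.00273). Jun lay closest to Nap1l1 (0.99) and Fosl2 to Rpl38 (0.98).

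The genes around AP-1 were read from 6 lists. These were chosen with earlier results of these data known, so a share called above that of all genes is no independent finding. Of 21 tested relatives with a bZIP domain 1 rose (4.76%, against 5.79% of all genes), Cebpd, a C/EBP factor of acute inflammation, at 24.8, 18.3 and 58.7 CPM in the wild-type group against 190, 74.3 and 113 CPM in the null group (log2 fold change 1.6, edgeR adjusted p = 0.0395). Its call ended when wild-type library 1 or 2, or null library 1 or 3, was left out (highest adjusted p = 0.184), in limma-voom with a random effect of mouse number (adjusted p = 0.0805) and after summing the wild-type pair (edgeR adjusted p = 0.0797). The Jun dimerization protein Jdp2 (0.25) and Batf3 (-1.41) did not pass (edgeR adjusted p = 0.708 and 0.131). Of 31 kinases upstream of AP-1 1 rose (3.23%, against the same 5.79%), Mapkapk3, a kinase downstream of p38 (1.26, edgeR adjusted p = 0.0463). Its call was lost whichever library was left out (highest adjusted p = 0.165) and with DESeq2 (adjusted p = 0.115). Of 17 SRF partners and other cofactors of Fos and Jun 0 passed in edgeR and 0 in DESeq2. At an unadjusted edgeR p under 0.05 stood 5 of the 17, beside 25.1% of all genes tested. The medians of the 3 lists were 0.11, -0.1 and -0.12, and in none of them was the share called above that of all genes.

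Immediate early genes, switched on by the same signals as Fos, were read next. Of 30 tested 5 rose and 1 fell, 20% against 5.79% of all genes, and the median log2 fold change was 0.06 against 0.01 over all genes. The list was chosen with earlier results known, which limits this contrast. Egr1, classically induced together with Fos in this response, stood at -0.1 (edgeR adjusted p = 0.909), and Ier2 at 0 (groups overlapping). The genes that rose were led by the orphan nuclear receptors Nr4a1 (4.32) and Nr4a3 (3.09) and by Ptgs2 (3.83), the inducible cyclooxygenase. Ptgs2 stood at 12.4, 6.11 and 7.13 CPM in the wild-type group against 220, 41.1 and 117 CPM in the null group (SE 0.6, edgeR adjusted p = 0.00409). Nr4a1 stood at 9.31, 0 and 9.49 CPM in the wild-type group against 221, 17.9 and 302 CPM in the null group, an uneven rise (edgeR adjusted p = 0.038). Nr4a3 stood at 0.776, 6.11 and 2.6 CPM in the wild-type group against 12.8, 7.69 and 38.7 CPM in the null group. It entered the test through the null libraries, since in the wild-type group only library 2, with 1 read, reached the filter of 3.07 CPM. Cxcl1 (1.86) and Ier3 (1.34), named after their values were seen, also rose, and Ccn2 (-1.96), a matrix-associated target of YAP, fell from 96.2 ± 12.5 to 25.6 ± 14.5 (CPM, mean ± SD of 3 libraries, edgeR adjusted p = 0.0189).

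In limma-voom with a random effect of mouse number 2 genes of the list passed, among them neither Nr4a1, Nr4a3, Cxcl1 nor Ccn2 (adjusted p = 0.229, 0.299, 0.187 and 0.0882). Most calls among these immediate early genes also ended when a single library was left out. Nr4a1 kept its call only without null library 2 among the 6 fits with 1 library left out (highest edgeR adjusted p = 0.407), and Ptgs2 lost it without wild-type library 3 (0.157). Nr4a3 lost it without wild-type library 1 or 3 and null library 1, Ccn2 without wild-type library 3 or null library 1, Ier3 without wild-type library 3 and null library 1 or 3, and Cxcl1 without any of 5 libraries, null library 2 being the exception. In the fit lacking wild-type library 3 none of these 6 genes passed, and in the fit lacking null library 1 Ptgs2 alone did.

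MAP kinase feedback genes, which are induced by the pathway and damp it, held 3 that rose and 1 that fell of 16 tested (25% against 5.79% of all genes, median 0.15). The same limit on the choice of the list holds here. DESeq2 called 2 of the list, without Dusp4 (adjusted p = 0.0971) and Spred3 (0.0537). Dusp4, a nuclear MAP kinase phosphatase, stood at 4.66, 6.11 and 3.29 CPM in the wild-type group against 22.9, 12.3 and 9.38 CPM in the null group (log2 fold change 1.87, edgeR adjusted p = 0.0443). Errfi1, an inhibitor of the EGF receptor, rose from 50.1 ± 17 to 141 ± 49 CPM (SD over 3 libraries each, log2 fold change 1.34, edgeR adjusted p = 0.0266), and Spred1, an inhibitor of Ras signalling, rose from 96.3 ± 27.7 to 192 ± 43.2 CPM (1.08, adjusted p = 0.0414). Spred3 fell (-1.25, edgeR adjusted p = 0.0398), with overlapping libraries. Each of the 4 calls ended when wild-type library 3 or null library 1 was left out, with highest adjusted p values of 0.265, 0.106, 0.134 and 0.134 in the order named.

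AP-1 target genes were the list with most calls. Of 54 genes 37 were tested, of which 7 rose and 2 fell (24.3% against 5.79% of all genes). At an unadjusted p under 0.05 stood 22 of the 37, beside 25.1% of all genes. The median log2 fold change was 0.49 against 0.01. As the list was chosen with earlier results of these data known, these contrasts are no independent finding. The list mixes targets of several cell types, and 3 of its genes, markers of keratinocyte differentiation, had no read in any library (Ivl, Sprr1b and Sprr2a3). Mmp3, the stromal protease stromelysin, stood at 121, 73.3 and 57.2 CPM in the wild-type group against 2012, 1201 and 961 CPM in the null group. That was a 16.5-fold rise (log2 fold change 4.04, SE 0.41, edgeR adjusted p = 0.00023) that passed under all 15 other settings tried. Mmp13, a collagenase, stood at 1.55, 12.2 and 7.63 CPM in the wild-type group against 351, 68.3 and 108 CPM in the null group (4.76, edgeR adjusted p = 0.00374). It did not pass when wild-type library 3 was left out (0.178) or when low counts were not filtered (0.0716).

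Fst, the activin antagonist follistatin, stood at 1.55, 0 and 5.71 CPM in the wild-type group against 50.3, 19.2 and 25.8 CPM in the null group (log2 fold change 2.76, edgeR adjusted p = 0.0106). Fst entered the test through the null libraries, since in the wild-type group only library 3 reached the filter of 3.07 CPM. Its call was lost without null library 1 (adjusted p = 0.0615), and its log2 fold change was 4.39 without wild-type library 3. S100a9, which is also a neutrophil marker, rose 7.16-fold (edgeR adjusted p = 0.00548), and did not pass when wild-type library 3 was left out (0.0634). The 2 genes that fell, named after their values were seen, were Hbegf, an EGF-receptor ligand (-1.19, edgeR adjusted p = 0.0414), and Itga5, the fibronectin receptor subunit (-0.93, adjusted p = 0.0494). Itga5 lost its call whichever library was left out, and Hbegf lost it in the fits lacking wild-type library 3 or any null library. Fibroblast markers had 2 of 5 higher and 1 lower (summed level 3526 to 4872 CPM in wild type and 4925 to 6154 CPM in null), and mast cell and neutrophil markers were higher in the same null libraries. Their part in the target list was not tested. The neutrophil and target lists share S100a8 and S100a9, which hold most of the neutrophil sum, so the same reads enter both. Of the other neutrophil markers Ly6g had no read in any library and Retnlg reached at most 0.978 CPM.

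**Figure D5:**
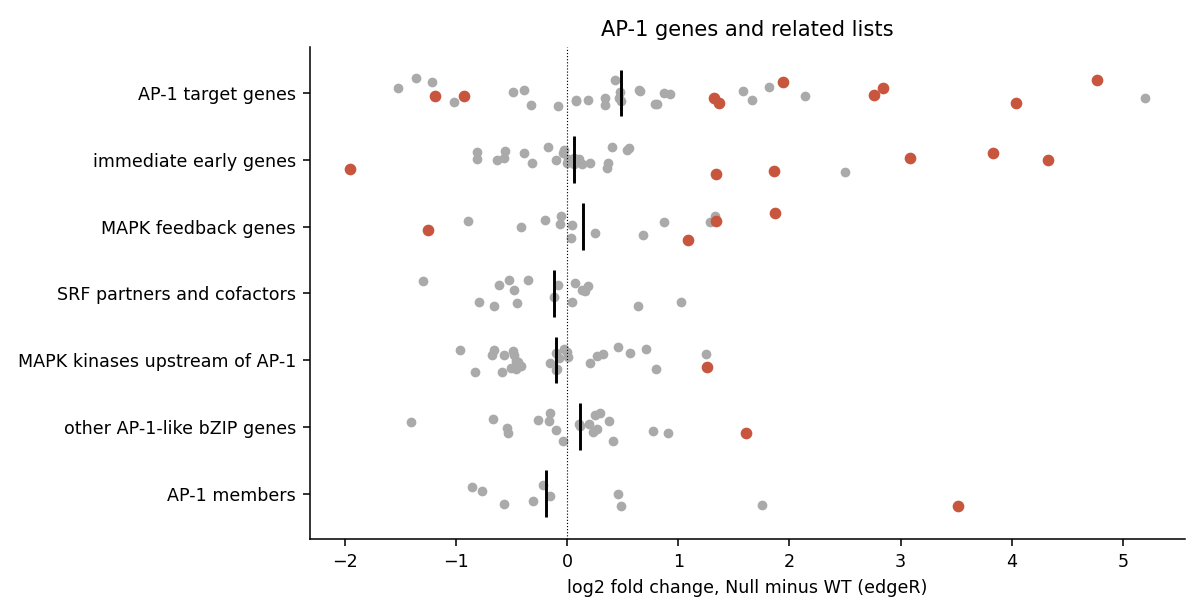
Log2 fold change (null minus wild type, edgeR, horizontal axis) of every tested gene in the AP-1 family and 6 related lists. Red points had an adjusted p under 0.05, black bars are list medians and vertical scatter is only for display. The target genes have the highest median, 0.49, and the family itself the lowest, -0.19.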

How the data were processed

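Total RNA from 6 tumours was sequenced. The authors deposited whole-number read counts per Ensembl gene, 1 file per library, without normalization. Per the submitters' processing notes, TopHat2, Cuffdiff, DESeq2 and the build mm9 were used. Not given in the sources used here were the counter, its use of strand and the annotation. Reads assigned to no gene (4.63% to 12% outside genes, 32.9% to 40% with several alignments) were left out. Symbols came from a table of Ensembl identifiers and names (32919 of 37991 matched) and exon lengths from GENCODE M21 (GRCm38).

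Null was compared with wild type in R 4.3.3 with edgeR 4.0.16 (TMM, default expression filter, robust quasi-likelihood fit, Benjamini-Hochberg adjustment over all genes). The fit was tested on simulated data. DESeq2 1.42.0 and limma 3.58.1 served as alternatives. Each SE is the absolute log2 fold change divided by the root of F. CPM values are given as mean ± SD. Named were all 10 members, and of each related list every gene called or the 4 with the largest change. Of the genes of most similar pattern, the 3 with the highest r were named for Fos, Junb and Jund. For Jun, Fosl2 and Atf3 only the closest gene was named. The depth-class fit and leaving libraries out of the Jun ratio and sum were added after the data were seen. Other genes were chosen after their values were seen. The members and lists were chosen with earlier results of these data known. Replicate numbers follow the deposited order and pair nothing.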

Additional observations from a re-analysis of the deposited data

How the results depend on the processing

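The count of AP-1 genes that passed, 1 in the reported comparison, was 2 with upper-quartile scaling, with no filter on low counts and after summing the libraries of each mouse number (Fosl1 and Maff each time). It was 0 with DESeq2 and 0 with a filter of 10 CPM in 3 libraries, which left Fosl1 out. At an unadjusted p under 0.05 stood 4 and 3 members there. The share over all genes was not counted in those fits, so these counts are no result about the family. In the reported comparison 4 members stood beside 25.1% of all genes tested. The count was 3 with the depth class as a term, beside 17.9% of all genes tested. It was 1 with mouse number as a random effect, where Maff passed in place of Fosl1. Leaving out single libraries gave 0 to 1, namely Maff without wild-type library 1 and Fosl1 without wild-type library 2. Over all genes 179 to 855 passed with single libraries left out, against 688, and 2122 with the depth class as a term. With mouse number as a random effect 533 of 961 calls were higher in null tumours, against 269 of 688. The 6 related lists held 21 genes that passed, 12 with the wild-type pair summed, 42 with the depth class as a term, and 4 to 17 with single libraries left out. Signs turned for Fos (-0.87 to 0.35 with single libraries left out, 0.35 without wild-type library 1, 0.16 without null library 2, 0.15 with the depth class), Fosl2 (-0.32 to 0.28, the latter without wild-type library 3) and Atf3 (-0.041 to 0.88, the former without wild-type library 3), none of which passed in any fit. The cause of these shifts was not tested. No paired analysis was possible because the labels carry no replicate numbers shared between the groups. In wild-type library 2 Fosl1 (1 read) and Maff (0 reads) lay under the floor of 3 counts, 18.3 CPM, and cannot be told from absence there.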
